A study of Homo sapiens with 4 samples.

Results

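The importins are the carriers that bring proteins into the nucleus, and the 10 genes described here encode 6 importin alpha adaptors (KPNA1 to KPNA6), importin beta (KPNB1) and 3 further carriers of the importin beta family (IPO5, IPO7 and TNPO1). They were taken by name, and all 10 were found among the 19970 protein-coding genes of the RefSeq table on chromosomes 1 to 22 and X. For each gene, every broad peak of either replicate that overlapped the gene or the 10 kb on each side was collected; gene plus flanks is called the window. Chromatin immunoprecipitation and sequencing (ChIP-seq) had been done on untreated cells of an MDA-MB-231 subclone; MDA-MB-231 is a human cell line from a triple-negative breast cancer, and its genotype label here is wild type. There were 2 PD-L1 ChIP samples, precipitated with an antibody against the HA tag, and 2 input libraries without antibody, numbered 1 and 2 in the same way. No source used here states how the tag was introduced. PD-L1 is a membrane protein that binds the inhibitory receptor PD-1 of T cells.

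In the classical route of nuclear entry, an importin alpha binds the nuclear localization signal of a cargo and importin beta binds the alpha adaptor and carries the complex through the nuclear pore. Inside the nucleus the small GTPase Ran, in its GTP-bound form, releases the cargo. Other members of the importin beta family, such as transportin (TNPO1), bind their cargoes directly.

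On chromosomes 1 to 22 and X the deposited lists had 166548 peaks for replicate 1 and 93591 for replicate 2. The authors' fold enrichment, the ratio of signal to the peak caller's background, had a median of 3.14 in replicate 1 and 2.27 in replicate 2. Read depth is unknown, since the files hold peaks only. No mock precipitation was analysed here, so recovery of chromatin without the target cannot be told apart from binding in any result below. With 2 lists of 1 condition no test between conditions was possible, and every comparison with other genes is a description without a test.

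Of the 10 importin genes, 9 had a peak of replicate 1 in the window, against 83.2% of all protein-coding genes. In replicate 2, 5 importin genes had one, against 74.5% of all protein-coding genes. A shared region, the union of overlapping peaks that holds at least 1 peak of each replicate, was found in the windows of 3 importin genes (KPNA4, KPNA6 and KPNB1), against 59.5% of all protein-coding genes. KPNA2 was the 1 importin gene with no peak of either replicate, a state found in 14.1% of all protein-coding genes. The importin genes were also long, with a median length of 69536 bp, against 24190 bp for all protein-coding genes, so genes of like length are set beside them further below.

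The windows of the 10 genes, 864.7 kb together, held 26 peaks of replicate 1 and 9 of replicate 2. Of the 26, 7 touched a gene-end window (1 kb on each side of either end of the gene), 10 lay in the gene body and 9 in the flanks. Of the 9 peaks of replicate 2, 2 were at gene ends, 3 in bodies and 4 in flanks. A peak counted once, at a gene end before a body and in a body before a flank. The peaks were unevenly spread: the window of KPNA6 alone held 10 of the 26 peaks of replicate 1 (38.5%).

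**Figure D1:**
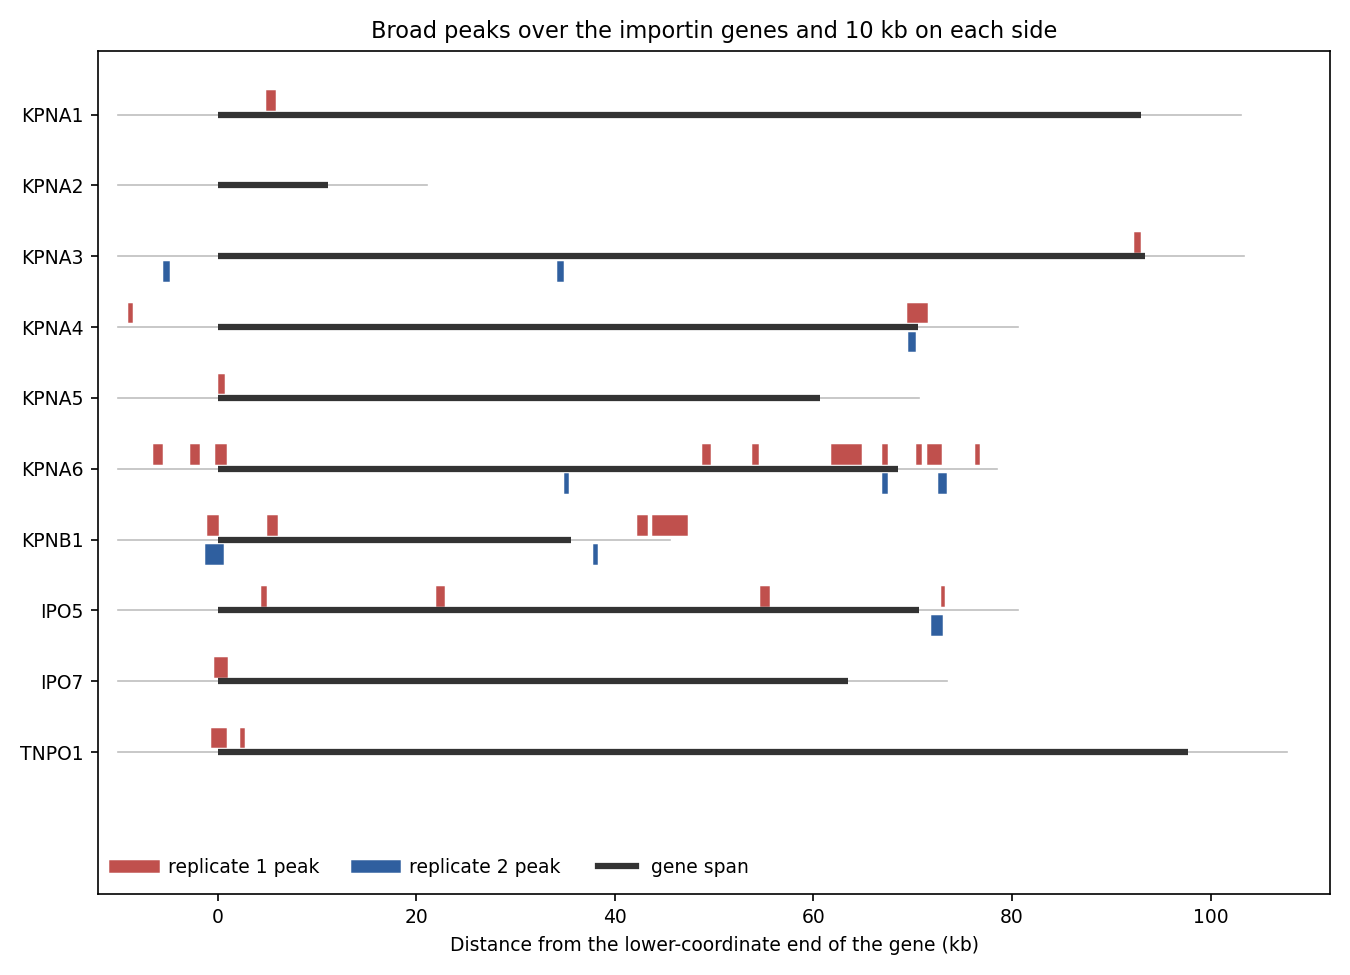
Broad peaks over each importin gene and 10 kb on each side, with the distance from the lower-coordinate end of the gene in kb on the x axis and 1 row for each gene. Red blocks above the line are peaks of replicate 1, blue blocks below it are peaks of replicate 2, the thick line is the gene and block outlines widen the narrowest peaks slightly. KPNA2 has no block, and red and blue blocks overlap at an end of KPNA4, at the lower-coordinate end of KPNB1, and in and beside KPNA6.

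Promoter sequences show where the peaks of the importin genes lay relative to the start of transcription. RefSeq promoter sequences (GRCh38.p14, the same build as hg38, from 250 bases before to 50 after a start, written along the gene's strand) were matched for 7 of the 10 genes, with 2 starts for TNPO1; KPNA4, KPNA5 and KPNB1 were not matched. The 5 printed here are that of KPNB1-DT, the divergent transcript beside KPNB1, as the one under peaks of both replicates; those of IPO7, KPNA6 and TNPO1, which met a peak of replicate 1 alone; and that of KPNA2, the gene without peaks. Their places are chr17:47649379-47649678 on the minus strand for KPNB1-DT and, on the plus strand, chr11:9384402-9384701 for IPO7, chr1:32107806-32108105 for KPNA6, chr5:72816411-72816710 for TNPO1 and chr17:68035485-68035784 for KPNA2. Capitals mark matches on either strand to 8 short promoter motifs, whose letters are given with their counts after the sequences.
KPNB1-DT: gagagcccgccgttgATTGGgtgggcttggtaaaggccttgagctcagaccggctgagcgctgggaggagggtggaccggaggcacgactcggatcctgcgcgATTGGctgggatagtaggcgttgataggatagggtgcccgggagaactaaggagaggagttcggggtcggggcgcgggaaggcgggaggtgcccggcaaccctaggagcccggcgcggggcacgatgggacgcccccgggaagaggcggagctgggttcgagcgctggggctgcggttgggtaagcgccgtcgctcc
IPO7: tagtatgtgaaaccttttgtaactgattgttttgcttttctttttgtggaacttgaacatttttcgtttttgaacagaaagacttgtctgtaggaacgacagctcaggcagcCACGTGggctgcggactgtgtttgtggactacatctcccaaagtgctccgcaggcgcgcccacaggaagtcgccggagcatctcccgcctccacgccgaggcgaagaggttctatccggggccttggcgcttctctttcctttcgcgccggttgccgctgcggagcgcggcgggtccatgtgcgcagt
KPNA6: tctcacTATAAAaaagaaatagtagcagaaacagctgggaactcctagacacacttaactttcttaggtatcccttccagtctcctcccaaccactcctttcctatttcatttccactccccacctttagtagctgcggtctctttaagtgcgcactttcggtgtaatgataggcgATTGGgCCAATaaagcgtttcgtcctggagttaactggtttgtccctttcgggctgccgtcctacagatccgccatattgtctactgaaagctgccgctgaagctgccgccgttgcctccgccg
TNPO1: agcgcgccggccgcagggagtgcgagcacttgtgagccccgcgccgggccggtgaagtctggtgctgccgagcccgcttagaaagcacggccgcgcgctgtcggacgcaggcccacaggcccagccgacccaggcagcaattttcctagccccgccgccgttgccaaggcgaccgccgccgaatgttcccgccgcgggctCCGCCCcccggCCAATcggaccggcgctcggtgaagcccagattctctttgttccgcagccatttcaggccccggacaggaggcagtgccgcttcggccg
KPNA2: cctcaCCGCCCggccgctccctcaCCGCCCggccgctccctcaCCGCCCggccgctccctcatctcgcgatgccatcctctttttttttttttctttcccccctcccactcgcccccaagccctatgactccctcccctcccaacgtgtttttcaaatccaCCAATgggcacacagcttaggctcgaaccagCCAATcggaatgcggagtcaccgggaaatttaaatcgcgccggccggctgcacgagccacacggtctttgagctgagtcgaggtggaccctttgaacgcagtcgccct

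All 300 bases of the KPNB1-DT, IPO7 and TNPO1 promoters lay under a peak of replicate 1, as did 188 of the 300 bases of KPNA6. Only the KPNB1-DT promoter also lay under a peak of replicate 2, again with all 300 bases. Over the 8 promoter windows of the importin genes themselves, 3 met a peak of replicate 1 and 0 met a peak of replicate 2. The unmatched genes KPNA4, KPNA5 and KPNB1 all had a gene-end peak of replicate 1, and KPNA4 and KPNB1 had one of replicate 2. Those gene-end peaks are not in these counts. Of 22131 promoter windows of protein-coding genes, 49.9% met a peak of replicate 1, 13.2% a peak of replicate 2 and 20.2% a shared region, whose extent can come from either replicate. The promoters of KPNA1, KPNA2, KPNA3 and IPO5 and the second start of TNPO1 met no peak.

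Among the importin promoters, GC content overlapped between those with and those without a peak of replicate 1. The promoters under a peak had GC contents of 55.3% (IPO7), 49.3% (KPNA6) and 71.7% (TNPO1). Those without one had 63.3% (KPNA1), 61.7% (KPNA2), 72.0% (KPNA3), 56.0% (IPO5) and 51.3% (second start of TNPO1). Over all protein-coding genes, promoters with a peak of replicate 1 had a median GC content of 64.7%, and those without one had 58.0%. The IPO5 promoter, which met no peak, also stood apart in its CpG content: the observed count was 0.213 of that given by its C and G content, against 0.738 at the median of all promoters.

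Of the motifs, searched on both strands, the GC box with the letters GGGCGG was found in 4 of the 8 importin promoters (KPNA1, KPNA2, KPNA3 and 1 start of TNPO1), against 56.3% of all promoters. The pentamer of the CAAT box, CCAAT, was also in 4 of 8 (IPO5, KPNA2, KPNA6 and TNPO1), against 34.6%. The E box, spelled CACGTG, was in IPO7 and KPNA3, against 8.34% of all promoters. The TATA box was searched as TATAAA and found in KPNA6 alone, against 9.46%. Part of the cyclic AMP response element, TGACGT, was in IPO5 alone, against 8.92%. KPNA2 held the most matches, 3 of the GC box and 2 of the CAAT box, and no peak. The remaining motifs were in no importin promoter: an ETS motif with the letters CCGGAAG, held by 12.8% of all promoters, part of the NRF1 motif with the letters GCGCATG, held by 5.26%, and part of the YY1 motif with the letters AAGATGG, held by 6.05%. No matches of different motifs overlapped in the printed sequences. These counts describe letters in a window of 300 bases and say nothing of factors.

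KPNB1, importin beta itself (chr17:47649919-47685505), had the best-ranked shared region of the importin genes. The peak of replicate 1 at its lower-coordinate end spanned chr17:47648951-47649876 with a fold enrichment of 3.45 and a −log10 q of 2.50. The peak of replicate 2 there, chr17:47648743-47650364, had a fold of 2.2, below the median of its list, and a −log10 q of 2.02. Replicate 2 thus covered the whole peak of replicate 1 and reached into the gene, while the peak of replicate 1 stopped short of it. Among 45771 shared regions ordered by the mean of their fold ranks in both replicates, the region ranked 10256, in the upper 22.4%. It also covered the higher-coordinate end of KPNB1-DT, which lies at 47649428.

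The rest of the KPNB1 window held peaks of 1 replicate at a time. In the body, replicate 1 had a peak of fold 2.56, higher than only 0.905% of the peaks of its list. Beyond the other end, replicate 1 had peaks of fold 3.21 and 3.46, the second of them 3338 bp wide and over the lower-coordinate end of TBKBP1, whose span begins 8558 bp beyond KPNB1. Replicate 2 had 1 peak in that flank, of fold 2.31, with 4256 bases between it and the nearest peak of replicate 1.

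KPNA4, an importin alpha that carries NF-kB among its cargoes (chr3:160495007-160565571), was the other gene with a shared region at an end. The peak of replicate 1, chr3:160564512-160566376, crossed the higher-coordinate end with a fold of 2.99 and a −log10 q of 2.41. The peak of replicate 2, chr3:160564619-160565174, lay within it and had a fold of 2.18 and a −log10 q of 1.90. Both folds were below the medians of their lists, and the region ranked 33364 of 45771. A further peak of replicate 1 lay in the flank, with a fold of 2.79.

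KPNA6, another importin alpha (chr1:32108056-32176563), had the most peaks in its window, with 10 of replicate 1 and 3 of replicate 2. Of the 10, 1 was at a gene end, 4 lay in the body and 5 in the flanks, some of these over TMEM39B or TXLNA. The strongest of replicate 1 crossed the start of transcription (chr1:32107918-32108812, fold 3.48, −log10 q 2.53) and had no partner in replicate 2. The strongest of replicate 2 lay in the body (chr1:32143009-32143225) with a fold of 3.17, higher than 98.7% of its list, and 13732 bases from the nearest peak of replicate 1. The strongest peaks of each replicate were thus not shared. The shared regions of this window were weaker. The first, chr1:32175029-32175344, lay in the body near the end of transcription with folds of 3.02 in replicate 1 and 2.25 in replicate 2. The second, chr1:32179560-32181321, had folds of 2.89 and 2.08 in replicates 1 and 2 and lay in the flank. It lay over the lower-coordinate end of TXLNA, the next gene, whose span begins at 32179675.

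IPO7 and TNPO1 carried their main peak at the start of transcription in replicate 1 alone. IPO7 (chr11:9384652-9448127), a carrier of ribosomal proteins and histones, had 1 peak, chr11:9384393-9385483. Its fold of 4.23 and −log10 q of 3.55 were the highest of all 35 peaks of the importin genes, and its fold exceeded that of 99.5% of the peaks of replicate 1. No peak of replicate 2 lay in the window, and the nearest was 54567 bases from that peak. TNPO1 (chr5:72816661-72914388), which carries hnRNP proteins, had chr5:72816119-72817415 across its first start (fold 3.25) and a peak of fold 2.66 inside the gene. Both were of replicate 1, and the nearest peak of replicate 2 was 63362 bases from the first. The peak at the start also lay over the higher-coordinate end of TNPO1-DT, the divergent transcript.

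KPNA3 and KPNA5 also had a gene-end peak in replicate 1 alone. In KPNA3 (chr13:49699320-49792682), the closest relative of KPNA4, the peak chr13:49791681-49792155 lay 527 bp inside the end where transcription starts, with a fold of 3.20. Replicate 2 had peaks elsewhere in KPNA3, in the body with a fold of 2.93, higher than 96.6% of its list, and in the flank with a fold of 2.27. KPNA3 thus had peaks in both replicates and no overlap. The nearest peak of replicate 2 to its replicate 1 peak was 15719 bases away, outside the window. The body and flank peaks of replicate 2 were 47294 and 7611 bases from the nearest peak of replicate 1, also outside the window. In KPNA5 (chr6:116681211-116741867), the peak chr6:116681317-116681746 began 106 bp inside the lower-coordinate end with a fold of 3.25, and replicate 2 had no peak in the window.

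KPNA1, IPO5 and KPNA2 had no gene-end peak in either replicate. KPNA1 (chr3:122421902-122514939), another importin alpha, had 1 peak of replicate 1 in the body (chr3:122426910-122427613, fold 2.88) and no peak of replicate 2 in the window. IPO5 (chr13:97953675-98024296), a carrier of ribosomal proteins and histones, had peaks of replicate 1 with folds of 2.95, 2.89 and 2.95 in the body and 3.01 in the flank. Replicate 2 had 1 peak in the same flank, chr13:98025636-98026571, with a fold of 2.35. It missed the flank peak of replicate 1, chr13:98026577-98026760, by 5 bases, so IPO5 counts as having no shared region under an overlap of at least 1 bp. KPNA2 (chr17:68035735-68046854), an importin alpha that is high in many tumours, is the shortest of the 10 genes at 11120 bp. The nearest peaks were 15484 bases from the gene in replicate 1 and 19905 in replicate 2. CD274, the gene of PD-L1, likewise had no peak of either replicate in its window.

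**Figure D2:**
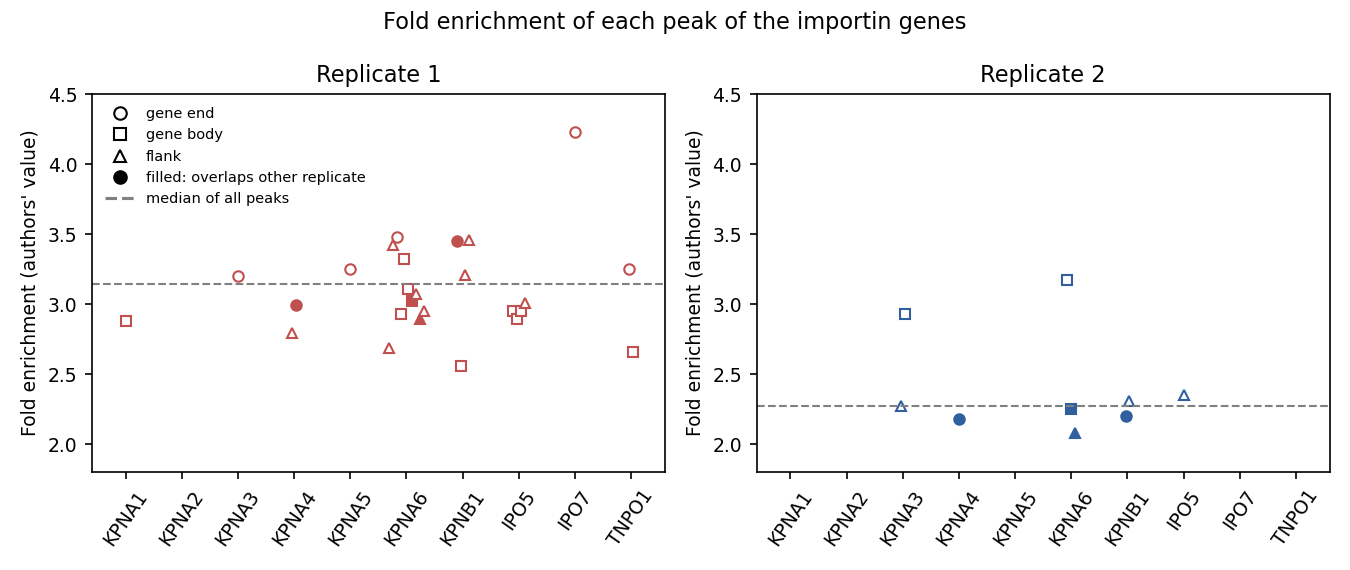
Fold enrichment (the authors' value, y axis) of each peak in the window of each importin gene (x axis), in replicate 1 (left) and replicate 2 (right). Circles are peaks at gene ends, squares in bodies and triangles in flanks, filled symbols overlap a peak of the other replicate and the dashed line is the median of the whole list (3.14 in replicate 1 and 2.27 in replicate 2). The IPO7 circle at 4.23 stands above all others, and 6 of 7 circles of replicate 1 lie above the line.

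Peaks at gene ends were the stronger ones among the importin genes in replicate 1. Of 7 gene-end peaks, 6 had a fold above the list's median, against 4 of the 19 other peaks. Over all peaks of replicate 1, 60.0% of those that touched the end window of any protein-coding gene and 48.8% of those elsewhere were above it. The medians for the importin genes were 3.25 at gene ends and 2.95 elsewhere. In replicate 2, 0 of 2 gene-end peaks and 4 of 7 other peaks were above the list's median, against 38.1% and 51.1% of all peaks of replicate 2. Over all peaks, the order of gene ends and other places was therefore opposite in the replicates. The importin genes had the same orders, but theirs in replicate 2 rests on only 2 gene-end peaks and cannot show a reversal.

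Matched promoters gave the strand, and so the end where transcription starts, of 4 importin genes with a gene-end peak (KPNA3, KPNA6, IPO7 and TNPO1). In all 4 the peak was one of replicate 1 at the start of transcription, a place where 92.0% of the 11120 protein-coding genes with a known strand and a gene-end peak of replicate 1 also had one. None of the 4 had a peak at the other end, where 51.9% of those genes had one. A peak in a short gene can count at both ends.

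Gene-end peaks were about as common among the importin genes as among all genes in replicate 1, with 7 of 10 genes, against 68.8% of all protein-coding genes. In replicate 2 there were 2 of 10 (KPNA4 and KPNB1), against 37.1%, and both were shared, so 2 of 10 importin genes had a shared region at an end, against 32.9%. For 5 importin genes (KPNA3, KPNA5, KPNA6, IPO7 and TNPO1) a gene-end peak of replicate 1 stood without a shared region, against 36.1% of all protein-coding genes. In gene bodies, away from the ends, 5 importin genes had a peak of replicate 1, against 57.5%, 2 had a peak of replicate 2, against 50.2%, and 1 (KPNA6) had a shared region, against 34.0%.

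Overlap between the replicates was counted over the peaks of the importin windows. In replicate 1, 4 of 26 peaks had an overlapping partner in replicate 2 (15.4%, Wilson 95% interval 6.15% to 33.5%), against 28.7% of all peaks of replicate 1. In replicate 2, 4 of 9 peaks had one in replicate 1 (44.4%, 18.9% to 73.3%), against 52.0% of all peaks of replicate 2. Both intervals, which cover counting error only and treat peaks of 1 gene as independent, include the share over all peaks.

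Against protein-coding genes of like length on the same chromosome (length within 25%, between 41 and 239 genes for each importin gene), most importin genes had few peaks. In replicate 1, 2 of the 10 (KPNA6 and IPO5) had more peaks per 10 kb of window than the median of their like-length genes. KPNA6 had 1.13, against a median of 0.579, and IPO5 had 0.441, against 0.265. Flanks held 5 of the 10 peaks of KPNA6 and 1 of the 4 of IPO5, and the windows of like-length genes include flanks too. At the other extreme, KPNA1 had 0.0885, against 0.557, and only 4 of its 127 like-length genes had fewer. IPO7 had 0.12, against 1.02, with 10 of 118 like-length genes below it, and KPNA5 had 0.124, against 0.602, with 8 of 91 below it.

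KPNA2 had 0 peaks where its 168 like-length genes had a median of 2.0 per 10 kb in replicate 1, and 29 of them also had none. KPNB1 had 0.72, against 1.72, although its window held 4 peaks. KPNA4 had 0.221, against 0.656, TNPO1 had 0.17, against 0.381, and KPNA3 had 0.0882, against 0.21. The like-length medians differ in chromosome as well as gene length. At near-equal length, that of KPNA4 (70565 bp, chromosome 3) was 0.656 and that of IPO5 (70622 bp, chromosome 13) was 0.265. The part of gene length was not tested.

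In replicate 2, 2 of the 10 importin genes again lay above the median of their like-length genes, KPNA6 (0.339, against 0.261) and KPNA3 (0.176, against 0.104). KPNB1 had 0.36, against 0.941, KPNA4 had 0.11, against 0.352, and IPO5 had 0.11, against 0.136. The 5 genes without a peak of replicate 2 (KPNA1, KPNA2, KPNA5, IPO7 and TNPO1) had like-length medians of 0.314, 0.959, 0.251, 0.442 and 0.187. For shared regions, KPNA6 alone exceeded its like-length median (0.226, against 0.118). Its value rests on 2 regions, of which 1 lay in the flank over TXLNA, and the windows of like-length genes include flanks too. KPNB1 had 0.18, against 0.563, and KPNA4 had 0.11, against 0.194.

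**Figure D3:**
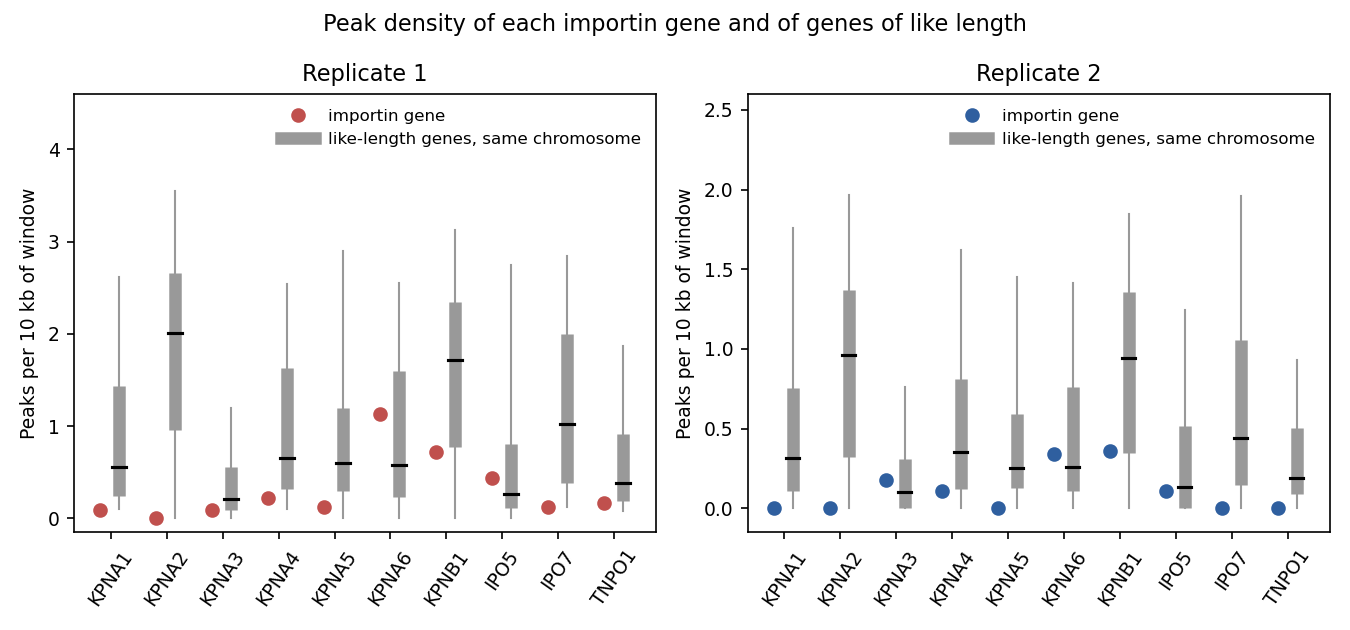
Peaks per 10 kb of window (y axis) for each importin gene (coloured points) and, to its right, for protein-coding genes of like length on the same chromosome (thick grey bars from the 25% to the 75% point, thin lines from the 5% to the 95% point, black line at the median), in replicate 1 (left) and replicate 2 (right). In each replicate 2 of 10 points lie above the black line beside them.

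Most genes of like length had a peak of each replicate in the window. Between 82.2% and 97.6% of the like-length genes had a peak of replicate 1 in the window, and between 65.9% and 90.3% had one of replicate 2. A shared region was present in 34.1% of the like-length genes of KPNA3 and 37.8% of those of IPO5, both on chromosome 13, and in 61.9% to 83.0% for the other 8. At gene ends, 7 of 10 importin genes had a peak of replicate 1, and the median share over their sets of like-length genes was 75.9%. In replicate 2 it was 2 of 10, and that median share was 35.2%. Shared regions at gene ends were found in 53.6% of the like-length genes of KPNB1 and 44.2% of those of KPNA4. The importin genes without one at an end had like-length shares from 15.6% (IPO5) to 51.8% (KPNA2).

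Peaks were also sparser in the importin windows than around them. In replicate 1, all 10 windows had fewer peaks per Mb than the 1 Mb on each side, a state found in 44.9% of all protein-coding genes and in 35.3% to 58.5% of the like-length genes of each importin gene. The importin windows of KPNA1, IPO7 and TNPO1 had 8.85, 12 and 17 peaks per Mb of replicate 1, against 87.5, 68.5 and 82.5 in their surroundings. KPNA6, which had the most peaks, had 113 in the window and 143 around it. In replicate 2, 9 of 10 windows were below their surroundings, against 50.5% of all protein-coding genes and 44.4% to 65.9% of the like-length genes. KPNA3 was the exception (17.6 in the window and 15.5 around it). The windows of KPNA1, KPNA2, KPNA5, IPO7 and TNPO1 held no peak of replicate 2, so they could only be below. The same holds for KPNA2 in replicate 1. The surroundings of KPNA3 and KPNA5 were themselves sparse in replicate 1, with 24.5 and 27.5 peaks per Mb.

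The genes most like the 3 importin genes with shared regions, by the summed difference of peaks per 10 kb in both replicates among like-length genes of the chromosome, were as follows. PIK3R4 (67896 bp) was nearest to KPNA4, with 2 peaks of replicate 1, 1 of replicate 2 and 1 shared region, a summed difference of 0.0101 per 10 kb. GJC1 was nearest to KPNB1, with 4 and 2 peaks in replicates 1 and 2 and 1 shared region (0.0316). ILDR2 was nearest to KPNA6, with 11 and 3 peaks and 1 shared region (0.0666). The likeness rests on 2 replicates.

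The other genes of nuclear transport had gene-end regions more often than the importin genes. Of 57 genes, 45 (78.9%) had a gene-end peak of replicate 1, 28 (49.1%) one of replicate 2 and 25 (43.9%) a shared region at an end, against 68.8%, 37.1% and 32.9% of all protein-coding genes. Their median length of 55135 bp was near that of the importin genes. Whether the importin genes differ from them was not tested.

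Within that group, the 11 other importins and transportins had 4 genes with a shared region at an end (36.4%). The best-ranked were IPO9, a histone carrier (fold 3.25 in replicate 1 and 2.15 in replicate 2), and IPO13, which works in both directions (3.21 and 1.97). Exportins, which carry cargo out of the nucleus, had 3 of 7 (42.9%), led by CSE1L, the exporter that returns importin alpha to the cytoplasm (3.53 and 2.47), and XPO6, the exporter of actin (3.55 and 2.30). Genes of the Ran cycle had 4 of 8, led by RANBP3, a cofactor of export (3.43 and 2.55), and RANGRF, a Ran-binding factor (3.75 and 2.24). Nucleoporins, the building blocks of the nuclear pore, had 14 of 31 (45.2%), led by AHCTF1, which starts pore assembly on chromatin (3.30 and 2.50), and NUP54, of the central channel (3.20 and 2.56). The regions of KPNB1 (3.45 and 2.2) and KPNA4 (2.99 and 2.18) had lower folds than that of CSE1L, the best-ranked of these 8, in both replicates, while KPNB1 had higher folds than IPO9 and IPO13 in both.

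**Figure D4:**
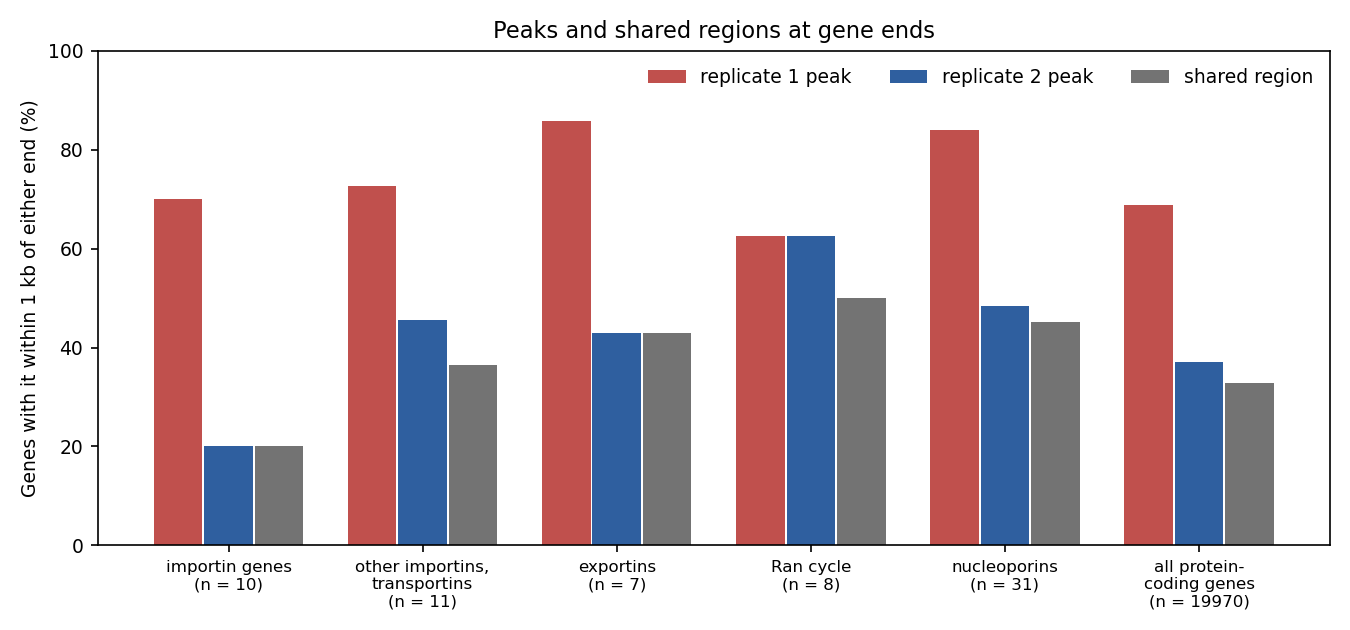
Percentage of genes with a peak of replicate 1 (red), a peak of replicate 2 (blue) or a shared region (grey) within 1 kb of either end (y axis, from 0 to 100%), for the importin genes, the other lists of nuclear transport genes and all protein-coding genes (x axis, with the number of genes). The importin genes have 7 of 10 for replicate 1 and 2 of 10 for replicate 2 and for shared regions.

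Pseudogenes named after the importin genes were also examined. Of 11 such pseudogenes (among them KPNA2P1, IPO5P1 and TNPO1P1), 0 had a peak of either replicate over the span, against 8.09% of 16664 pseudogenes in replicate 1 and 5.54% in replicate 2. With so few, 0 of 11 is near those shares. Reads from exons that a gene shares with such a pseudogene can map to either, and no source used here states how they were treated.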

How the data were processed

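The deposited files were 1 list of broad peaks for each of the 2 replicates. The submitters' processing notes name MACS2 2.1.1, Bowtie2 2.2.9 and the build hg38 without saying what each was used for, and no settings are stated. Column 7 of the deposited lists holds the authors' fold enrichment (a ratio) for each peak, columns 8 and 9 hold the authors' −log10 p and −log10 q, and column 5 holds the deposited score, which in 99.99% of lines was 10 times the −log10 q, rounded down. The replicates are called biological and independent by the submitters. Peak names of replicate 2 include "Merge"; whether that list was called on replicate 2 alone is not stated.

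Peaks on chromosomes 1 to 22 and X were set against gene spans of RefSeq GRCh38.p14 in Python 3.11.15 with pandas 2.3.3 and scipy 1.17.1, with an overlap of at least 1 bp. Like-length genes were protein-coding genes of the same chromosome within 25% in length, importin genes left out. The interval functions were checked on simulated peaks with known answers. The members and lists were chosen with earlier results of these data known. Named were all 10 genes, genes in their flanks, the 2 best-ranked genes of each transport list, the nearest like-length gene for 3 members, and CD274; KPNB1-DT, TNPO1-DT and the pseudogenes were added after their values were seen. The planned comparison of protein sequences was not made. No test was run, since no groups of samples with peaks could be compared.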

Additional observations from a re-analysis of the deposited data

How the results depend on the processing

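Of 65 values under other settings, 42 stayed within 1.5 times the count reported or within the interval of the share, and 23 did not. The stricter settings keep fewer peaks by construction, and no other cause was tested. With a −log10 q of at least 2, shared regions were left in the windows and at the ends of 1 importin gene (KPNB1) and in 0 gene bodies, 3 importin genes had a peak of replicate 2, and 4 of the 57 other transport genes had a shared region at an end. With the 50% of peaks of higher fold, shared regions were left in 0 importin windows, at 0 ends and in 0 bodies, 0 importin genes exceeded their like-length median, 0% of the importin peaks of either replicate overlapped the other, and 7 other transport genes had a shared region at an end. With a reciprocal overlap of 50%, 1 importin gene had a shared region at an end, 2 exceeded their like-length median and 10 other transport genes had a shared region at an end. With 1 replicate left out, peaks of the other alone lay in 5 to 9 importin windows, at the ends of 2 to 7 genes, in 2 to 5 bodies and at the ends of 28 to 45 other transport genes, and 2 importin genes exceeded their like-length median in both cases. Equal numbers of peaks, other flanks, other gene-end windows, placing regions by their centre and other length limits gave values within those bounds. No paired analysis was possible because the input libraries have no peaks and no test was run. The depth of the libraries is unknown, so a missing peak does not show absence of signal. The importin peaks had a median −log10 q of 1.88 in replicate 1 and 1.90 in replicate 2, against 1.91 and 1.8 over the whole lists, whose lowest value was 1.30 in both.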
